A study of Mus musculus with 7 samples.

Results

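The ERK feedback and ETV output genes described here are 10 genes, Dusp4, Dusp5, Dusp6, Spry1, Spry2, Spry4, Spred1, Spred2, Etv4 and Etv5, out of the 55423 features of a table of read counts from mouse skin tumours. They were chosen as transcripts known to respond to BRAF-MEK-ERK signalling, and their rows were found by gene identifier. All 10 were measured, and all 10 passed the filter on low counts. Every member had at least 72 reads in every tumour used.

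ERK, the last kinase of the RAS-RAF-MEK-ERK cascade, induces genes that restrain the same cascade. Dual-specificity phosphatases (DUSPs) remove the activating phosphates from MAP kinases, Sprouty proteins (SPRY) dampen the signal from receptor tyrosine kinases to ERK, and SPRED proteins bring the RAS inactivator neurofibromin to the membrane. ETV4 and ETV5 belong to the PEA3 group of ETS transcription factors, whose transcripts rise under growth factor signalling through ERK. RNA levels of these genes are widely used as a read-out of ERK output, although they measure neither ERK phosphorylation nor phosphatase protein.

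The tumours were cutaneous squamous cell carcinomas (cSCC) of mice on a C57BL/6J background in which tamoxifen, applied to the back skin, activated a CreERT2 recombinase under the involucrin (Ivl) promoter. The labels give an age of 7 to 10 weeks for this induction, and the study's methods give a range that begins and ends later. In both groups the recombinase switched on the oncogene BRAFV600E in one allele, and in the Ivl:BRAFV600E-SOX2LSL group it also switched on SOX2 together with eGFP from the Rosa26 locus. Some of the Ivl:BRAFV600E mice carried a Rosa26 tdRFP reporter. No group without BRAFV600E was among these samples, so every value compares oncogene-driven tumours with oncogene-driven tumours. The 3 Ivl:BRAFV600E tumours came from 2 females and 1 male, and the 3 Ivl:BRAFV600E-SOX2LSL tumours from 1 female and 2 males, each tumour from its own mouse. The labels list 4 Ivl:BRAFV600E and 3 Ivl:BRAFV600E-SOX2LSL tumours. Of the 7 columns of counts, 1 matched no mouse in the study's list and entered no value. By number it would be the remaining Ivl:BRAFV600E tumour, but its group was not checked with Sox2 and EGFP. All were collected at the clinical endpoint, which the Ivl:BRAFV600E-SOX2LSL mice reached earlier after induction, and Ivl:BRAFV600E tumours can arise at several body sites, so genotype, time since induction and possibly body site cannot be told apart. RNA depleted of ribosomal RNA was sequenced to between 23565432 and 31152826 counts on genes per tumour. Levels are given in CPM, the counts per 1 M of a library after scaling of the libraries by the trimmed mean of M values (TMM), and fold changes are Ivl:BRAFV600E-SOX2LSL over Ivl:BRAFV600E on the log2 scale with their standard error (SE).

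The labels were checked with Sox2 and the EGFP sequence. Sox2 lay between 0.238 and 0.716 CPM in the Ivl:BRAFV600E tumours and between 155 and 182 CPM in the Ivl:BRAFV600E-SOX2LSL tumours. EGFP had no count in the former and 110 to 139 CPM in the latter. Below, tumours with or without SOX2 are those with or without this Rosa26 allele. Sox2 reads were also found in the Ivl:BRAFV600E tumours, in which the paper reports SOX2 protein. The defining keratinocyte genes Krt5 and Trp63 were present in all 6 tumours, at 2371 to 3900 CPM and 261 to 321 CPM. The summed level of the 8 keratinocyte markers, most of it from Krt1, Krt10 and Krt14, was 92108 to 137951 CPM in the Ivl:BRAFV600E tumours and 16948 to 54721 CPM in the Ivl:BRAFV600E-SOX2LSL tumours, with none of the 8 called by edgeR and 3 lower by DESeq2. At an unadjusted p below 0.05, 4 of the 8 were lower and 1, Cdh1, was higher, with no overlap between the groups. The fitted change lay above 0 for 3 of the 8 (Cdh1, Krt5 and Trp63). Of all tested genes, 25.7% had such a p (14.5% higher and 11.2% lower), and 18.2% were higher without overlap. EdgeR called 2.39% of all tested genes higher and 1.51% lower. DESeq2 called 15.0% and limma voom 8.77% of them in either direction. The 5 myeloid markers summed to 45.9 to 68.0 CPM against 102 to 220 CPM, and 2 of them, Ptprc and Csf1r, rose by edgeR, against 4 by DESeq2 and 3 by limma voom. The 6 skeletal muscle markers summed to 0.921 to 2.00 CPM against 89.6 to 744 CPM, and 5 of them rose by edgeR, with counts of 5 by DESeq2 and 1 by limma voom, while the marker not called by edgeR, Myh4, had no count in the Ivl:BRAFV600E tumours. The fibroblast sum was 726 to 5028 CPM against 3891 to 8177 CPM, the endothelial sum 123 to 130 CPM against 118 to 145 CPM and the Schwann cell sum 40.0 to 48.5 CPM against 38.7 to 58.6 CPM. The T cell and melanocyte sums stayed at or under 5.49 CPM in all 6 tumours, and of the 24 genes in these last 5 lists edgeR called none (4 at an unadjusted p below 0.05), while DESeq2 and limma each called 2. In each of these bulk samples, fewer cells of a type and less RNA per cell cannot be told apart, and the part of these cell types in the results below was not tested.

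Of the 10 genes, 1 rose in the Ivl:BRAFV600E-SOX2LSL tumours and none fell. The gene was Etv5, and the 1 call in 10 stood beside 3.90% of the 24433 genes tested that had an adjusted p below 0.05 in the same edgeR quasi-likelihood fit (585 higher, 2.39%, and 369 lower, 1.51%). At an unadjusted p below 0.05 there were 6 members, 5 higher and 1, Dusp5, lower, where 25.7% of all tested genes had such a p (14.5% higher and 11.2% lower). DESeq2 called 3 members higher and none lower, with 15.0% of all tested genes called. That share was 18.2% of the 20046 genes to which DESeq2 gave an adjusted p. Limma voom called 1 in each direction, with 8.77% of all tested genes called. The groups were separate, with no shared range, for 5 of the 10 genes, against 34.2% of all tested genes. These were Dusp4, Spry2, Spred1, Spred2 and Etv5, all higher with SOX2, a direction in which 18.2% of all tested genes were separate. None of the 10 was separate in the lower direction, against a background of 16.0%. The fitted change lay above 0 for 7 genes and below 0 for 3, with a median of 0.71 on the log2 scale against 0.04 over all tested genes. The genes of one family did not lie on one side. Dusp5, Spry1 and Etv4 had negative fitted changes, and in each case a closely related gene had a positive one.

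**Figure D1:**
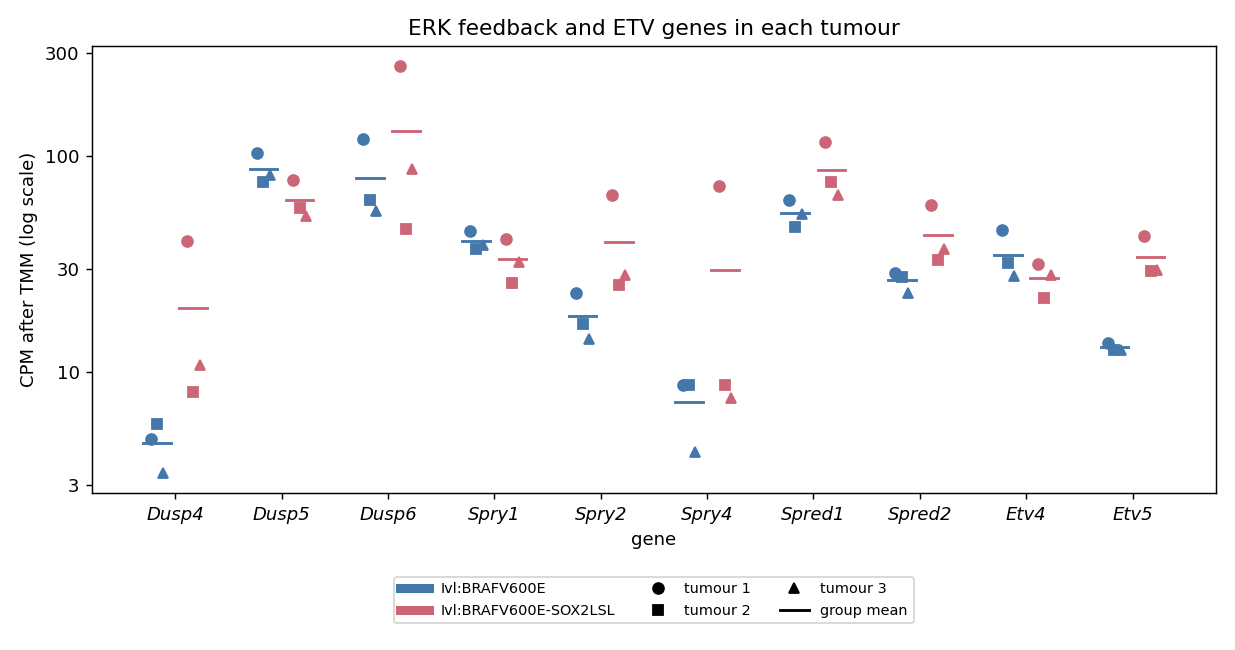
The level of each of the 10 genes in each tumour, in CPM after TMM on a log scale, with Ivl:BRAFV600E tumours in blue and Ivl:BRAFV600E-SOX2LSL tumours in red. Circles, squares and triangles mark tumours 1, 2 and 3 of a group and short lines mark the means of the 3 tumours. The groups are separate for Dusp4, Spry2, Spred1, Spred2 and Etv5, and the red circle is the highest of its group in every gene.

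Among the phosphatases, Dusp4 encodes a nuclear enzyme that acts on ERK, JNK and p38 and lies on chromosome 8 of GRCm38 (34807297 to 34819894, ENSMUSG00000031530). Its levels were 4.91, 5.77 and 3.42 CPM in the Ivl:BRAFV600E tumours and 40.5, 8.10 and 10.8 CPM in the Ivl:BRAFV600E-SOX2LSL tumours. All 3 tumours with SOX2 lay above all 3 without it, and tumour 1 stood far above the other two. The fitted log2 fold change was 2.08 (SE 0.62, edgeR adjusted p = 0.0998), and it was 1.01 (SE 0.27, adjusted p = 0.0764) without Ivl:BRAFV600E-SOX2LSL tumour 1. Under DESeq2 its adjusted p was 0.00577.

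Dusp5, on chromosome 19 (53529109 to 53542431, ENSMUSG00000034765), encodes a nuclear phosphatase specific for ERK. It had 104, 76.3 and 81.6 CPM in the Ivl:BRAFV600E tumours and 77.7, 57.4 and 53.1 CPM in the Ivl:BRAFV600E-SOX2LSL tumours. The groups overlapped, since the highest tumour with SOX2 lay above the lowest without it. Its log2 fold change was -0.47 (SE 0.19, edgeR adjusted p = 0.177), the lowest of the 10, and limma voom gave an adjusted p of 0.0496. Its exons share 547 bases with the antisense gene AC137853.2, and as the use of strand in counting is not stated, reads of both genes may be mixed.

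Dusp6 encodes the cytoplasmic phosphatase specific for ERK, and its transcript and protein are among the most used markers of ERK output. The gene lies on chromosome 10 (99263231 to 99267489, ENSMUSG00000019960). Its levels were 120, 62.5 and 55.9 CPM in the Ivl:BRAFV600E tumours and 260, 46.1 and 87.3 CPM in the Ivl:BRAFV600E-SOX2LSL tumours. The 2 extremes of all 6 values were both tumours with SOX2, tumour 1 at the top and tumour 2 at the bottom. The log2 fold change was 0.72 (SE 0.62, edgeR adjusted p = 0.491), and its sign was not stable. Without Ivl:BRAFV600E-SOX2LSL tumour 1 it was -0.26 (SE 0.39, adjusted p = 0.734), and with limma voom and sample weights it was -0.20 (adjusted p = 0.819). These 3 tumours per group therefore gave no direction for Dusp6.

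The Sprouty genes also differed from each other. Spry1 (chromosome 3, 37639947 to 37644598, ENSMUSG00000037211) had 44.9, 37.1 and 39.0 CPM in the Ivl:BRAFV600E tumours and 41.4, 25.9 and 32.5 CPM in the Ivl:BRAFV600E-SOX2LSL tumours. The groups overlapped through the first tumour with SOX2, and the log2 fold change was -0.28 (SE 0.19, edgeR adjusted p = 0.394). The exons of Spry1 share 710 bases with the antisense gene Gm42922, which limits this value in the same way as that of Dusp5. Spry2 (chromosome 14, 105891947 to 105896819, ENSMUSG00000022114), the family member best known for restraining receptor signalling in epithelia, had 23.3, 16.8 and 14.3 CPM against 66.2, 25.4 and 28.1 CPM. The groups did not overlap, but the gap between the highest tumour without SOX2 and the lowest with it was small. Its log2 fold change was 1.14 (SE 0.39, edgeR adjusted p = 0.133) and DESeq2 gave an adjusted p of 0.0428. Without Ivl:BRAFV600E-SOX2LSL tumour 1 the value was 0.56 (SE 0.21, adjusted p = 0.175).

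Spry4 (chromosome 18, 38586247 to 38601415, ENSMUSG00000024427) rested on a single tumour. Its levels were 8.76, 8.78 and 4.28 CPM in the Ivl:BRAFV600E tumours and 72.4, 8.78 and 7.62 CPM in the Ivl:BRAFV600E-SOX2LSL tumours. Tumours 2 and 3 with SOX2 lay within or at the edge of the range without it, while tumour 1 had 8.83 times the mean of the other two. The log2 fold change of 2.02 (SE 0.88, edgeR adjusted p = 0.204) became 0.17 (SE 0.32, adjusted p = 0.793) without that tumour. DESeq2 gave no p for Spry4.

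Both SPRED genes were higher in every tumour with SOX2 than in any tumour without it. Spred1 (chromosome 2, 117121374 to 117182279, ENSMUSG00000027351), the gene mutated in Legius syndrome, had 63.0, 47.3 and 54.3 CPM in the Ivl:BRAFV600E tumours and 116, 76.1 and 65.9 CPM in the Ivl:BRAFV600E-SOX2LSL tumours. The lowest tumour with SOX2 was close to the highest without it, and the log2 fold change was 0.65 (SE 0.23, edgeR adjusted p = 0.139). Spred2 (chromosome 11, 19924375 to 20024026, ENSMUSG00000045671) had 28.9, 27.7 and 23.3 CPM against 59.3, 33.1 and 37.3 CPM. Its spread in the Ivl:BRAFV600E tumours was small (26.6 ± 2.93 CPM, SD, n = 3) and larger in the Ivl:BRAFV600E-SOX2LSL tumours (43.3 ± 14.1 CPM, SD, n = 3). The log2 fold change was 0.70 (SE 0.23, edgeR adjusted p = 0.124), and neither SPRED gene was called in any alternative fit, where the lowest adjusted p were 0.0893 for Spred1 and 0.0670 for Spred2. Without Ivl:BRAFV600E-SOX2LSL tumour 1 the log2 fold changes were 0.37 and 0.40.

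**Figure D2:**
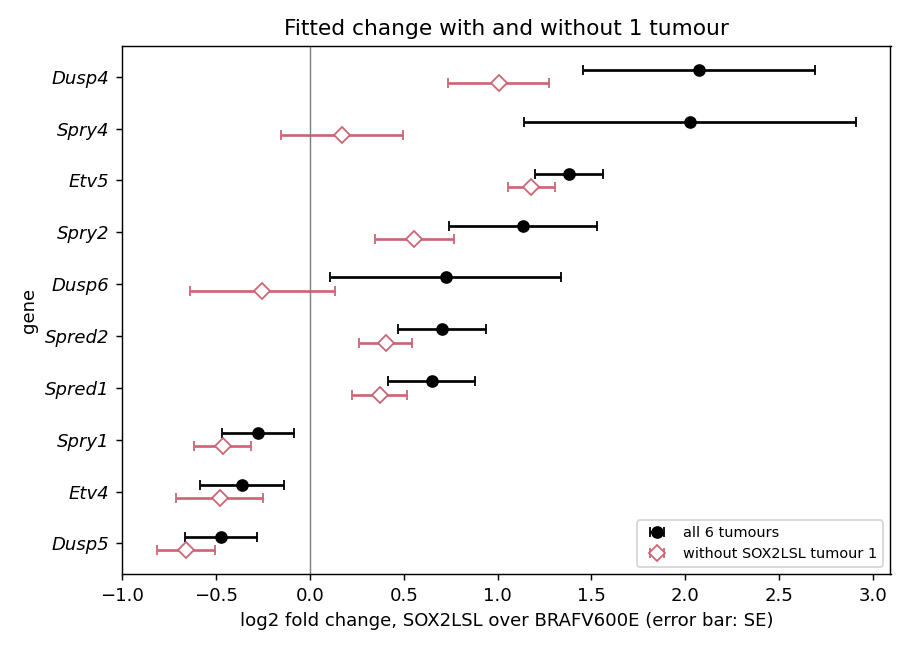
The fitted log2 fold change of each gene, Ivl:BRAFV600E-SOX2LSL over Ivl:BRAFV600E, with its SE, from all 6 tumours (black) and without Ivl:BRAFV600E-SOX2LSL tumour 1 (red, open). Etv5 moves from 1.38 to 1.18, whereas Spry4 moves from 2.02 to 0.17 and Dusp6 from 0.72 to -0.26.

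Of the pair of PEA3 factors, Etv5 changed and Etv4 did not pass the test. Etv5 (chromosome 16, 22381309 to 22439719, minus strand, ENSMUSG00000013089) had 13.7, 12.7 and 12.7 CPM in the Ivl:BRAFV600E tumours and 42.7, 29.6 and 29.8 CPM in the Ivl:BRAFV600E-SOX2LSL tumours. The tumours without SOX2 were nearly equal (13.1 ± 0.559 CPM, SD, n = 3), and each tumour with SOX2 lay far above them (34.0 ± 7.52 CPM, SD, n = 3). The log2 fold change was 1.38 (SE 0.18, edgeR adjusted p = 0.0196), or 2.60-fold. It remained between 1.18 and 1.47 over the 14 alternative fits, and the fit without Ivl:BRAFV600E-SOX2LSL tumour 1 gave 1.18 (SE 0.13, adjusted p = 0.00656). The adjusted p passed 0.05 when an Ivl:BRAFV600E tumour was left out (0.112, 0.0858 and 0.0626 without tumours 1, 2 and 3) and with sex as a covariate (0.0528).

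Etv4 (chromosome 11, 101769742 to 101785371, minus strand, ENSMUSG00000017724) had 45.4, 32.0 and 27.8 CPM in the Ivl:BRAFV600E tumours and 31.6, 22.0 and 28.3 CPM in the Ivl:BRAFV600E-SOX2LSL tumours. The groups overlapped, and the log2 fold change was -0.36 (SE 0.22, edgeR adjusted p = 0.346). As both factors were measured in each tumour, their levels per kilobase of annotated exon were set against each other, a ratio chosen after the values were seen. The ratio of Etv5 to Etv4 was 0.228, 0.302 and 0.346 in the Ivl:BRAFV600E tumours and 1.02, 1.02 and 0.796 in the Ivl:BRAFV600E-SOX2LSL tumours. Etv4 was thus the more abundant of the pair without the Rosa26 SOX2 allele, and with it both were at similar levels. The mean ratio was 0.292 ± 0.0594 (SD, n = 3) against 0.945 ± 0.129 (SD, n = 3), a difference of 1.71 on the log2 scale, which is given as a description because the ratio followed from the values already seen.

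**Figure D3:**
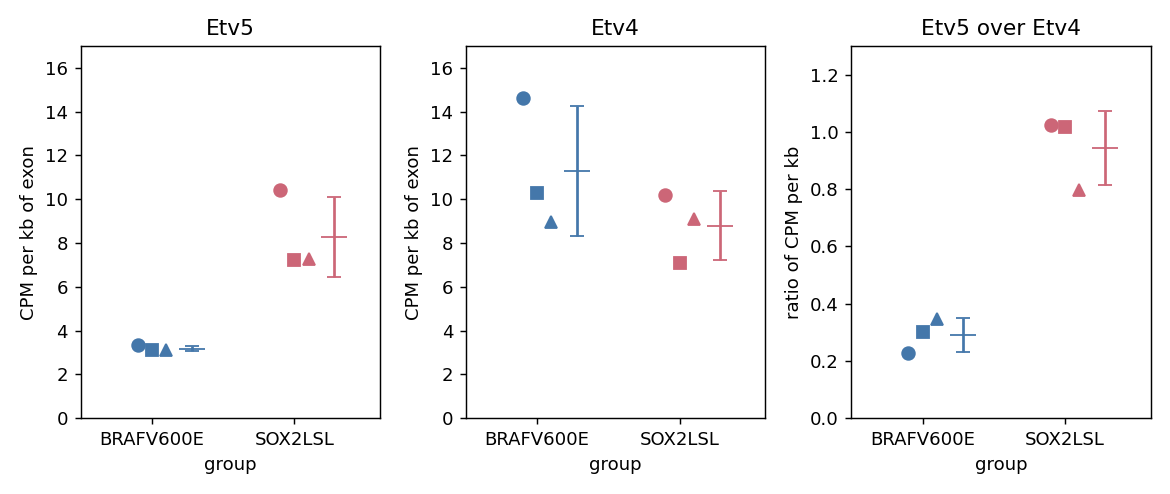
Levels of Etv5 and Etv4 in CPM per kilobase of exon, and the ratio of both, in the 3 tumours of each group (circle, square and triangle for tumours 1, 2 and 3). Horizontal marks with bars give the mean and SD. Etv5 is separate between the groups, Etv4 overlaps, and the ratio lies between 0.228 and 0.346 without the Rosa26 SOX2 allele and between 0.796 and 1.02 with it.

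The bases before the start sites of Etv5, the gene that was called, and of Dusp6, the ERK marker that was not, are shown as the reference sequence next to which these transcripts begin. They come from the RefSeq promoter windows on GRCm38.p6, which matched 7 of the 10 genes with 8 windows (Dusp4, Etv4 and Spry4 had no entry). Stretches that GENCODE annotates as exon were left out. Capitals mark CCAAT, or its reverse complement, and ACAAT, a core found in SOX motifs. Etv5 at chr16:22439720-22439820 (minus strand, upstream start), Etv5 at chr16:22438369-22438618 (minus strand, second start) and Dusp6 at chr10:99262981-99263230 (plus strand) read, 5′ to 3′, as follows.
Etv5 upstream start: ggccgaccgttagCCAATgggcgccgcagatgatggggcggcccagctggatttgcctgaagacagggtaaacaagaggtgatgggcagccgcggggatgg
Etv5 second start: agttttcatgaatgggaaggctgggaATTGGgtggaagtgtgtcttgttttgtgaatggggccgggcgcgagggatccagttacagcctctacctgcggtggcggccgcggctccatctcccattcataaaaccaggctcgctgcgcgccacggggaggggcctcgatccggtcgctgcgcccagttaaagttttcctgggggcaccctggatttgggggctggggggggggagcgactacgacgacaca
Dusp6: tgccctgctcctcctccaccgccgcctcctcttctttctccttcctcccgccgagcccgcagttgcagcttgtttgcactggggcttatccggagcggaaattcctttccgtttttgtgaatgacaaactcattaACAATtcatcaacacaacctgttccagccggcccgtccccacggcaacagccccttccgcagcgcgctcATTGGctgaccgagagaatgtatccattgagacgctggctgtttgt

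Each of the sets of letters named here was searched on both strands in the 250 bases before each start. CCGGAA (a longer ETS motif around the shorter core GGAA, which was not searched), TGANTCA (AP-1) and ACAATG (a SOX motif, which contains ACAAT) were found in none of the 8 windows, and 12.0%, 6.75% and 10.7% of all 32851 windows of this length held them. ACAAT was found once, in the Dusp6 window, against 27.7% of all windows. CCAAT was found 3 times in the full window of the upstream Etv5 start, and once each in those of the second Etv5 start, Dusp6 and Spry1, against 33.8% of all windows. These matches describe the letters of a short window only.

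Ivl:BRAFV600E-SOX2LSL tumour 1 had the highest level of its group for all 10 genes, whereas it was the highest of its group for 39.7% of all tested genes. Its level relative to the mean of the other two ranged from 1.26 for Etv4 to 8.83 for Spry4, with a median of 1.66 over the 10 genes and 0.975 over all tested genes. Dusp4 (4.28), Dusp6 (3.91) and Spry2 (2.48) followed Spry4. In the Ivl:BRAFV600E group, tumour 1 was the highest for 8 of the 10 genes, against 33.1% of all tested genes, and its largest ratio to the other two was 2.03, for Dusp6. Among the other pathway genes described below, Ivl:BRAFV600E-SOX2LSL tumour 1 was the highest of its group for 8 of 10 other ERK output genes, with a median ratio of 1.66 to the other two tumours as in the 10 members, and for 7 of 9 other feedback genes, with a median ratio of 1.44. It was the highest for 5 of 8 other ETS factors and repressors, 5 of 18 core genes and 1 of 4 stress MAPK phosphatases, so that this order was not particular to the members. Those with large ratios, chosen after their values were seen, included 3 genes. Spred3 had 29.4 CPM in tumour 1 against 4.60 and 3.83 CPM, Hmga2 183 against 5.64 and 6.28 CPM, and Ccnd1, which encodes cyclin D1, 264 against 79.2 and 69.2 CPM.

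The same tumour stood apart in other measures. It had the lowest keratinocyte sum (16948 CPM), with 1010 CPM of Krt1 and 425 CPM of Krt10 where the other two tumours with SOX2 had at least 11874 and 3994 CPM, the highest myeloid sum (220 CPM), the highest skeletal muscle sum (744 CPM) and the highest TMM factor of the 6 libraries (1.26). Its fibroblast sum (8177 CPM) and endothelial sum (145 CPM) were also the highest of the 6, and its Schwann cell sum (38.7 CPM) was the lowest. The part of these in the values of the 10 genes was not tested. Without this tumour, the median fitted change of the 10 genes was 0.27 and 6 of them lay above 0, the same gene, Etv5, being called.

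Per kilobase of exon, Dusp5 (35.3 ± 5.89 CPM per kilobase, SD, n = 3) and Dusp6 (25.4 ± 11.3) had the highest mean levels in the Ivl:BRAFV600E tumours. They were followed by Spry1 (13.9), Etv4 (11.3), Spry2 (8.69), Spred1 (8.08), Spred2 (5.76), Etv5 (3.18), Dusp4 (1.72) and Spry4 (1.53). The ranges over tumours overlapped between Dusp5 and Dusp6, from Spry1 through Spred1 in each neighbouring pair, and between Dusp4 and Spry4. They did not overlap between Dusp6 and Spry1, Spred1 and Spred2, Spred2 and Etv5, or Etv5 and Dusp4. In the Ivl:BRAFV600E-SOX2LSL tumours the order was Dusp6 (41.9), Dusp5 (25.4), Spry2 (19.1), Spred1 (12.7), Spry1 (11.5), Spred2 (9.36), Etv4 (8.79), Etv5 (8.29), Dusp4 (7.23) and Spry4 (6.23), and the range of each gene overlapped that of the next. By these group means Dusp5 and Dusp6 headed the list in both groups and Dusp4 and Spry4 closed it, but single tumours departed from this order. In Ivl:BRAFV600E-SOX2LSL tumour 1, Spry2 (31.7) lay just above Dusp5 (31.4), and Dusp4 (14.8) and Spry4 (15.2) lay above Etv5 (10.4) and Etv4 (10.2).

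Likeness to Dusp6 was measured as the root mean square difference of log2 CPM, centred on the mean over the 6 tumours, for 14429 genes with a mean of at least 1 CPM. The closest non-members were Irs1 (0.197), which encodes an insulin receptor substrate, Atp10b (0.242), Enc1 (0.274), Has2 (0.276), a hyaluronan synthase, and Trarg1 (0.282). Irs1 had 12.9, 5.36 and 7.46 CPM in the Ivl:BRAFV600E tumours and 27.3, 5.57 and 9.21 CPM in the Ivl:BRAFV600E-SOX2LSL tumours, with the peak in tumour 1 of each group as in Dusp6. None of these 5 genes passed the test between groups. Among the members, Spry2 was the nearest to Dusp6 (0.464, rank 78), followed by Spred2 (0.566, rank 328) and Spred1 (0.613, rank 605). Etv5 was the farthest of the 10 by this measure (0.792, rank 3922), close to Dusp5 (0.784, rank 3656). The measure depends on the size of the variation as well as on its order over tumours, so it does not rank patterns alone.

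The other genes of the pathway were taken from 5 lists with 50 genes, of which 49 were matched and tested (Spry3 was not matched). Of these 49, 3 rose and 2 fell, 5 in all against the background of 3.90%. In the core of the cascade, 1 of 18 genes rose. It was Ksr1, a scaffold that holds RAF, MEK and ERK together, with 6.79, 4.25 and 8.93 CPM in the Ivl:BRAFV600E tumours and 17.2, 17.6 and 22.9 CPM in the Ivl:BRAFV600E-SOX2LSL tumours (log2 fold change 1.53, SE 0.29, edgeR adjusted p = 0.0386). The adjusted p was 0.0293 without Ivl:BRAFV600E-SOX2LSL tumour 1 and lay between 0.0626 and 0.161 when any one of the other tumours was left out. With sex as a covariate it was 0.0873. No core gene passed the edgeR test in the lower direction (9 of 18 at an unadjusted p below 0.05, against 11.2% of all tested genes in that direction), while DESeq2 and limma voom each called 3 lower, with 15.0% and 8.77% of all tested genes called in either direction. The values of 9 core genes lay lower in every tumour with SOX2, against 16.0% of all tested genes, and the median of the core list was -0.19. Among them were Hras, Araf, Braf, Map2k2, Mapk3, Sos2 and Shoc2, singled out after their values were seen. The largest change among them was that of Mapk3, which encodes ERK1, at -0.73 (SE 0.19, edgeR adjusted p = 0.0780). Reads of Braf, -0.46 (adjusted p = 0.142), do not separate the oncogenic from the normal allele. Map2k1, which encodes MEK1 and was also picked after its value was seen, had -0.003.

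**Figure D4:**
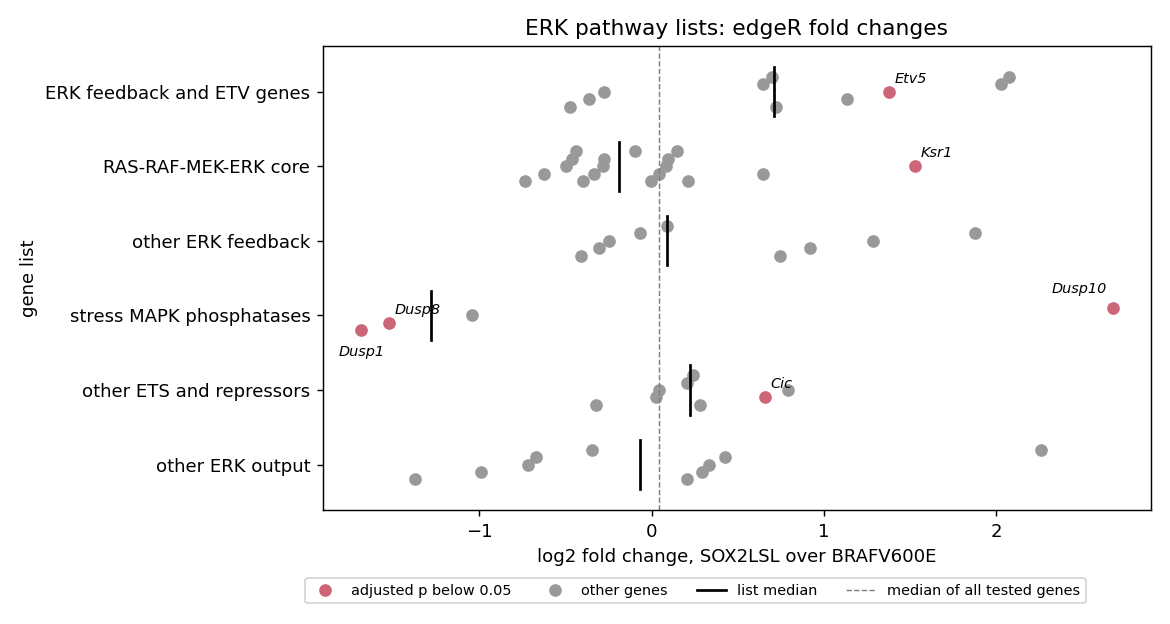
The fitted log2 fold change, Ivl:BRAFV600E-SOX2LSL over Ivl:BRAFV600E, of each gene of 6 lists. Red points have an edgeR adjusted p below 0.05 and are named, grey points do not, black lines are list medians and the dashed line is the median of all tested genes. Of the stress MAPK phosphatases, Dusp1 and Dusp8 lie at -1.69 and -1.52 and Dusp10 at 2.68.

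Among the phosphatases that act mainly on the stress kinases JNK and p38, 2 of 4 fell and 1 rose, where 1.51% of all tested genes fell and 2.39% rose. Dusp1, an immediate early gene, had 159, 126 and 106 CPM in the Ivl:BRAFV600E tumours and 28.3, 55.9 and 37.0 CPM in the Ivl:BRAFV600E-SOX2LSL tumours (log2 fold change -1.69, SE 0.27, edgeR adjusted p = 0.0283). All tumours with SOX2 were well under all those without it. Dusp8 had 22.1, 24.4 and 18.3 CPM against 6.27, 8.49 and 7.80 CPM (-1.52, SE 0.19, adjusted p = 0.0170), and the groups were again separate. Dusp10 had 1.64, 1.02 and 0.808 CPM against 9.48, 4.21 and 8.67 CPM (2.68, SE 0.42, adjusted p = 0.0268), in the opposite direction. Dusp16, outside the naming rule and added after its value was seen, had a log2 fold change of -1.04 (adjusted p = 0.0551). Without Ivl:BRAFV600E tumours 1, 2 and 3, the adjusted p was 0.126, 0.0918 and 0.0626 for Dusp1, 0.0954, 0.0694 and 0.0423 for Dusp8, and 0.104, 0.0969 and 0.0724 for Dusp10. Without Ivl:BRAFV600E-SOX2LSL tumour 3 it was 0.0688 for Dusp1 and 0.0595 for Dusp10, and the 3 genes were called without tumour 1 or tumour 2 of that group. With sex as a covariate the adjusted p was 0.0807 for Dusp1, 0.0504 for Dusp10 and 0.0421 for Dusp8.

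Of the 9 other feedback genes that were matched, none was called by edgeR, with 3 at an unadjusted p below 0.05, against 25.7% of all tested genes, and a median of 0.09, while DESeq2 called 2 and limma voom 1, with 15.0% and 8.77% of all tested genes called. The smallest p was that of Lrig1, which encodes a negative regulator of ERBB receptors and marks stem cells of the skin. It had 19.3, 8.13 and 19.8 CPM in the Ivl:BRAFV600E tumours and 82.8, 41.6 and 49.0 CPM in the Ivl:BRAFV600E-SOX2LSL tumours (log2 fold change 1.88, SE 0.40, edgeR adjusted p = 0.0504). The next was Il17rd, also known as Sef, an inhibitor of FGF signalling to ERK, at 0.74 (SE 0.23, adjusted p = 0.105). Among 8 other ETS factors and repressors, 1 rose, against 2.39% of all tested genes. Cic, the gene of the repressor Capicua, which binds the Etv genes and is inactivated by ERK, had 96.9, 107 and 107 CPM against 181, 147 and 162 CPM (0.66, SE 0.13, adjusted p = 0.0415). This call held without Ivl:BRAFV600E-SOX2LSL tumour 1 (0.0271), and the adjusted p lay between 0.0699 and 0.177 without any one of the other tumours. The edgeR adjusted p of Cic was also above 0.05 with upper-quartile scaling (0.0536) and with sex as a covariate (0.1115). The groups were separate, so that Cic and Etv5 were both higher with SOX2. Etv1, the third member of the PEA3 group and likewise added with its value known, had 0.03 (SE 0.59, adjusted p = 0.983).

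Of 10 other ERK output genes edgeR called none, with 5 at an unadjusted p below 0.05, against 25.7% of all tested genes, and their median was -0.07. DESeq2 and limma voom each called 2, with 15.0% and 8.77% of all tested genes called. The immediate early genes Egr1 and Fos had log2 fold changes of -0.99 (SE 0.30, edgeR adjusted p = 0.0999) and -1.38 (SE 0.45, adjusted p = 0.119). Egr1 had 154, 121 and 132 CPM in the Ivl:BRAFV600E tumours and 91.0, 39.1 and 75.0 CPM in the Ivl:BRAFV600E-SOX2LSL tumours, without overlap, and its adjusted p was 0.0424 without tumour 1 of the latter group. Fos ranged from 29.9 to 120 CPM without SOX2 and from 23.8 to 34.0 CPM with it, and overlapped. DESeq2, which called 3653 genes, called 13 of the 49 other pathway genes, Egr1, Fos, Lrig1 and Il17rd included.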

How the data were processed

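Bulk RNA of 6 mouse tumours was analysed. Per the labels and the study's methods, the authors depleted ribosomal RNA, checked reads with FastQC 0.11.8, trimmed adaptors with TrimGalore, used HISAT2 2.1.0 for alignment to GRCm38 and counted them per gene with featureCounts (Subread 1.6.3). The deposited values are raw read counts per gene, not normalised. Whether multimapping reads or strand were used is not stated. Columns are named by mouse, and groups and sexes of the mice came from the study's list of mice; 1 of the 7 columns matched no listed mouse and was not used. Tumour numbers only name the columns.

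Genes that reached 5 reads in 1 or more tumours were retained, scaled by TMM and tested with edgeR 4.0.16 (R 4.3.3), quasi-likelihood, genotype as the only factor, with Benjamini-Hochberg adjustment over all 24433 genes; a call is an adjusted p below 0.05. Log2 CPM used a prior count of 2. The SE of a fold change was derived from the edgeR test, as the absolute log2 fold change over the square root of the F statistic. A level of 3 counts corresponds to 0.0839 to 0.143 CPM, for counting error only. Symbols, positions and exon lengths came from GENCODE M21.

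The 10 members and all lists were chosen with earlier results of these data known. Besides the members, the rule named each list gene that was called, otherwise the 2 with the smallest p of a list, Sox2, EGFP, the cell type markers and the 5 genes most like Dusp6; any other gene is marked in the text. Some results under this rule are left out. Alternatives were DESeq2 1.42.0, limma 3.58.1 (voom with sample weights), DESeq2 size factors, upper-quartile scaling, no filter, filterByExpr, sex as a covariate, the 10 top-count genes removed, and each tumour left out.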

Additional observations from a re-analysis of the deposited data

How the results depend on the processing

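Etv5 was the 1 member called, and it was also the 1 called with DESeq2 size factors, upper-quartile scaling, no filter, filterByExpr and the 10 top genes removed. DESeq2 called 3 members (Dusp4, Spry2 and Etv5), limma voom 2 (Dusp5 and Etv5), and the fit with sex as a covariate 0. In that last fit 3 members had an unadjusted p below 0.05, against 4543 of all 24433 tested genes. Leaving out a tumour gave 0 to 1 members, with 0 without each Ivl:BRAFV600E tumour. In these 3 fits (without tumours 1, 2 and 3) there were 5, 4 and 2 members at an unadjusted p below 0.05. Over all tested genes, 4306 of 23953, 4545 of 24198 and 5569 of 24258 had such a p. Of the 49 other pathway genes, 5 were called by edgeR, 13 by DESeq2, 12 by limma voom, 1 with sex as a covariate (Dusp8) and 0 to 11 with a tumour left out, the 11 without Ivl:BRAFV600E-SOX2LSL tumour 1 and the 0 without Ivl:BRAFV600E tumour 1 or 2 (14 and 15 at an unadjusted p below 0.05), with 1 without Ivl:BRAFV600E tumour 3 or Ivl:BRAFV600E-SOX2LSL tumour 3 and 3 without Ivl:BRAFV600E-SOX2LSL tumour 2. Over all genes, 954 were called by edgeR, 3653 by DESeq2, 2142 by limma voom, 1759 without the filter, 228 with sex as a covariate and 22 to 1575 with a tumour left out. The latter counts were 22, 50 and 179 without Ivl:BRAFV600E tumours 1, 2 and 3, and 1575, 202 and 412 without those of the other group; the cause was not tested. Over the 14 alternatives Etv5 was called in 10, Dusp8 in 12, Dusp1 and Dusp10 in 9 each, Ksr1 in 8 and Cic in 7, and none of these 6 changed sign. Only Dusp6 changed sign among the 10 members, to -0.20 with limma voom and, over the fits that left out a tumour, from -0.26 to 1.15. Upper-quartile scaling moved the median of all genes from 0.04 to -0.06 and that of the members from 0.71 to 0.60. No paired analysis was possible because the columns carry no replicate number. All 10 members lay above the level of 3 counts in every tumour, and the effect of depth on these comparisons was not tested.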
